A study of Mus musculus with 8 samples.

Results

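Transcripts of the enzymes that conjugate glutathione and remove peroxides and superoxide were compared between livers of 80-week and 8-week male mice, collected 8 h after acetaminophen. The members were chosen by gene name: every non-control probe named Gsta, Gstm, Gstp, Gstt, Gstk, Gsto, Gstz, Mgst, Gpx, Prdx or Glrx with only a number after it, or Sod1, Sod2, Sod3, Cat, Txn1 or Txn2. This gave 79 probes and 48 genes of the 56605 probes and 36666 gene names on the array. The study held 8 liver RNA samples, 4 from male mice aged 80 weeks given acetaminophen and 4 from male mice aged 8 weeks given acetaminophen, each on 1 single-colour Agilent array. The labels name no strain or dose and do not say whether the arrays came from separate animals; p-values therefore speak only of the spread among these 8 arrays, part of which may be technical. Both ages had received the drug, and livers without it were not analysed here, so an age difference at rest and an age difference in the drug response cannot be told apart. On the slide, row 2 held every 80-week sample and row 1 every 8-week sample, and row and age cannot be told apart.

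Glutathione transferases join the thiol of glutathione to reactive molecules. In acetaminophen poisoning, cytochrome P450 enzymes turn part of the drug into NAPQI, a quinone imine that reacts with glutathione and, once glutathione has run down, with proteins of the hepatocyte. Superoxide dismutases turn superoxide into hydrogen peroxide, which catalase, the glutathione peroxidases and the peroxiredoxins reduce. The peroxidases draw their electrons from glutathione, and most peroxiredoxins from thioredoxin. Glutaredoxins use glutathione to release proteins from mixed disulfides. Much of the family is abundant in hepatocytes, and many members are targets of the transcription factor NRF2.

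The values below are log2 intensity of a probe relative to the 75th percentile of its array, so 0 is the brightness that 75% of the array's probes stay under and 1 unit is a 2-fold step. Values on each array are given in the order of replicates 1 to 4. Differences are 80-week minus 8-week on the same log2 scale, with the standard error (SE) of the limma fit, and adjusted p-values are Benjamini-Hochberg over all 17565 genes tested. Levels of different probes are not comparable with each other. In bulk liver, fewer cells of a type and less RNA per cell cannot be told apart.

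Of the 48 genes, 41 had a probe that stood well above background on 4 or more arrays and were tested, each through its brightest such probe, and all 41 were above background on all 8 arrays. No member passed an adjusted p of 0.05 in either direction, where 0.33% of all genes passed as higher and 0.0285% as lower. At an unadjusted p under 0.05, 6 of the 41 were higher in 80-week livers (Gstt1, Gstm2, Sod3, Gstm6, Gstm5 and Sod2), against 7.91% of all genes. By the same measure 3 were lower (Glrx, Gsta2 and Gstp1), against 6.14% of all genes. The 2 ages did not overlap for 5 members: Gstm5, Prdx6, Sod2 and Sod3 were higher on every 80-week array (background 4.62%) and Glrx lower (background 3.76%). The 95% intervals of 24 of the 41 lay wholly within a 2-fold change in either direction, against 10474 of all 17565 genes, a similar share.

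Small differences leaned upward. The difference was positive for 31 of 41 members (75.6%), against 52.0% of all genes, and the median was 0.25 for the members and 0.02 for all genes. The lean moved with 8-week replicates 1 and 2, which lay at -61.3 and -99.2 on the first principal component of the tested genes (49.1% of the variance), against 10.2 to 47.5 for the other 6 arrays. Replicate 2 of the 8-week livers was the lowest of the 8 arrays for 31 of the 41 members (75.6%), against 35.1% of all genes. That array also had the highest 75th percentile, 352.8 intensity units, against 154.7 to 264.8 on the others. It had the most probes above background as well (50.4%, against 43.3% to 46.9%). The part of this brightness, by which every value is scaled, in the low values was not tested. Without 8-week replicates 1 and 2, 19 of 41 differences were positive (46.3%, all genes 42.5%), and the median was -0.01 (all genes -0.06). Of the members, 12 had turned sign, and 18 differences, whatever their sign, were under 50% of their size on all 8 arrays. Turned signs and shrunken differences were not counted over all genes, so these counts do not set the members apart. At an unadjusted p under 0.05 there was then 1 higher member, Gpx8 (background 4.27%), and 5 lower ones, Glrx, Gsto1, Gstp1, Prdx1 and Prdx5 (background 4.75%). The median SD between arrays of one age was 0.23 in 80-week and 0.45 in 8-week livers for the members, and 0.28 and 0.40 for all genes.

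The summed level of 10 hepatocyte markers such as Alb and Apoa1, all above background, ran from 3690 to 6108 on the 80-week arrays and from 2727 to 5410 on the 8-week arrays, in multiples of the array's 75th percentile, and its lowest value was also that of 8-week replicate 2. For pericentral hepatocyte markers, which include Glul and Cyp2e1, the sum ran from 895 to 1431 in 80-week and from 501 to 1066 in 8-week livers. In this sum the brightest probe weighs most: Cyp2e1, at 8.76 to 9.75 over the 8 arrays, differed by 0.07. The sum therefore says little of the dimmer markers. All 11 tested pericentral markers of 12 had a positive difference (median 1.64, and 1.24 without 8-week replicates 1 and 2). Without those arrays Cyp2e1 (-0.25) and Cyp27a1 (-0.43) were negative. With all 8 arrays 1 of them (Slc1a2) passed the threshold, and Axin2 was above background on 1 array only. Of 10 periportal hepatocyte markers, 6 were positive and 4 negative (median 0.07, and -0.48 without 8-week replicates 1 and 2). The erythroid sum ran from 182 to 923 in 80-week and from 534 to 1508 in 8-week livers. Other marker genes past the threshold were Cidea of the adipocyte list (8.97), Jchain of the plasma cell list (5.41) and Tff3 of the cholangiocyte list (-2.56). The part of these shifts in the members' differences was not tested.

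**Figure D1:**
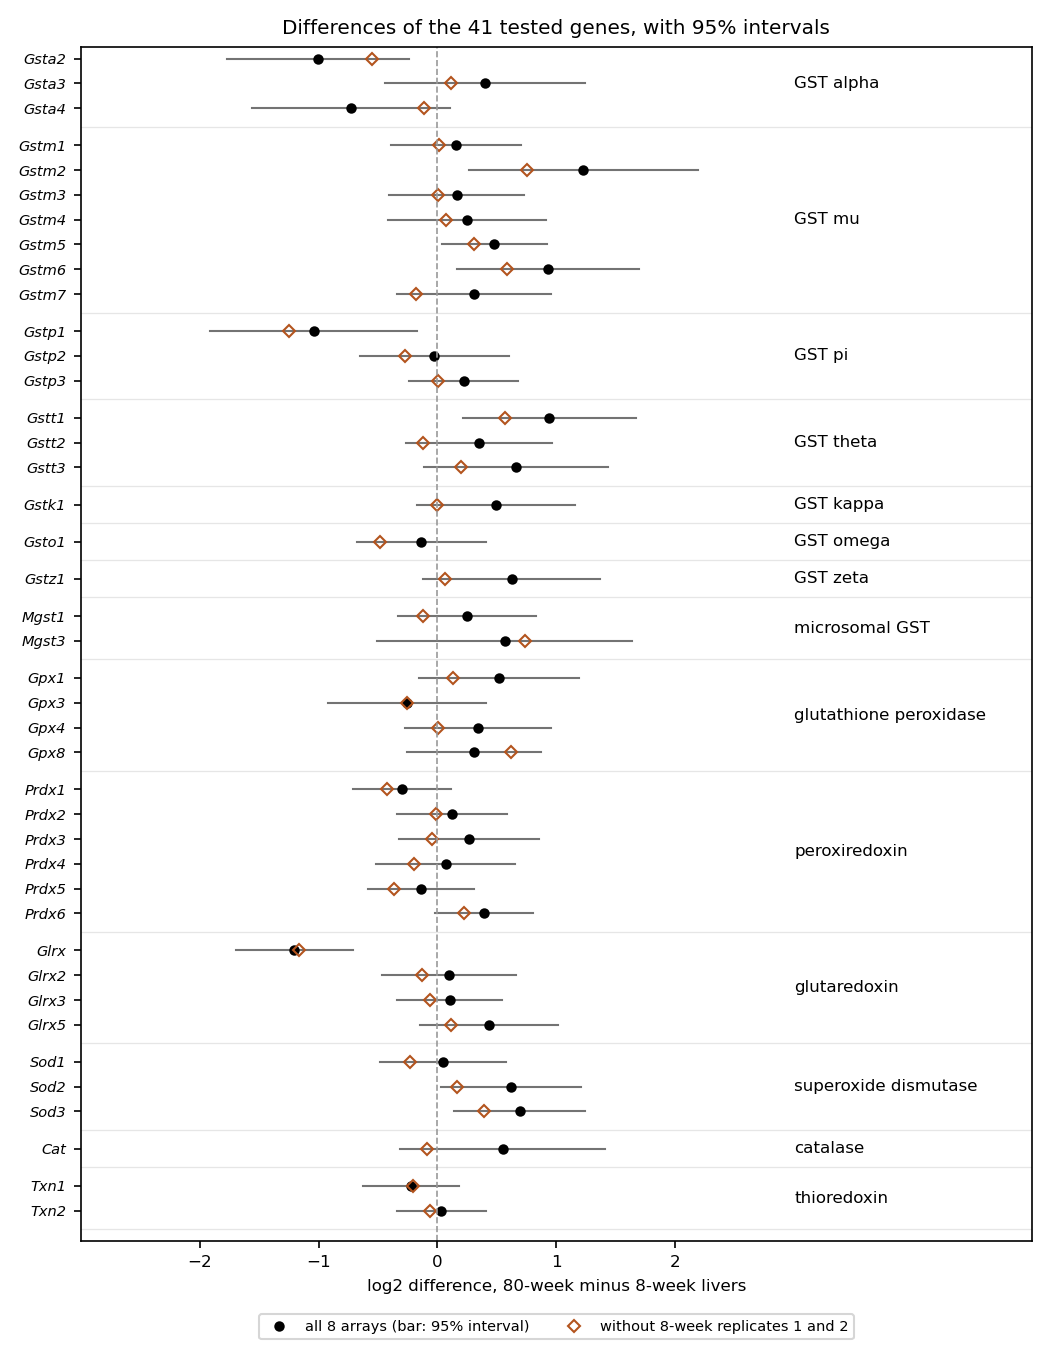
Log2 difference (80-week minus 8-week livers, horizontal axis) of the 41 tested genes, grouped by class down the page. Dots and bars are the difference and its 95% interval from all 8 arrays, and open diamonds the difference without 8-week replicates 1 and 2; Glrx lies near -1.2 either way, whereas Cat moves across 0 (0.55 and -0.09).

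Glrx had the smallest p-value of the 41 members. It encodes glutaredoxin-1, a cytosolic enzyme that removes glutathione from protein thiols. Its level was 2.57, 3.25, 2.98 and 2.47 in 80-week livers, against 4.26, 3.88, 4.02 and 3.93 in 8-week livers. Every 80-week array lay below every 8-week array, with a distance of 0.63 between the groups. The difference was -1.21 (SE 0.22), 2.31-fold lower, with an adjusted p of 0.0638 (limma), so it did not pass the threshold. It passed under 5 of the 13 other settings (adjusted p 0.0284 to 0.0493) and under none of the 8 omissions of 1 array (0.0550 to 0.224), and the difference was -1.16 without 8-week replicates 1 and 2 (adjusted p = 0.276). The gene had 1 probe, which lies on mm9 at chr13:75986983-75987042, plus strand, and is printed here because this value rests on it alone.
Glrx probe: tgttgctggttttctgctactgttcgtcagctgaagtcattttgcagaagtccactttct

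Differences of the other glutaredoxins were nearer 0. For Glrx2, the mitochondrial glutaredoxin, the brightest probe was at 9.60, 9.14, 9.04 and 8.78 in 80-week livers, against 9.11, 8.51, 9.30 and 9.24 in 8-week livers. On this probe the ages overlapped (difference 0.10, SE 0.25). A second tested Glrx2 probe was far dimmer, with means of 3.74 in 80-week and 3.54 in 8-week livers. It differed by 0.21 (SE 0.21), and by -0.04 without 8-week replicates 1 and 2. Whether the brighter probe reads Glrx2 alone was not tested, so its values may not be the level of Glrx2. The class values below use the brighter probe. Differences were 0.10 (SE 0.20) for Glrx3 and 0.43 (SE 0.26) for Glrx5, both iron-sulfur cluster proteins. In the class as a whole 3 of 4 differences were positive, with a median of 0.10, whereas without 8-week replicates 1 and 2 it was 1 of 4, with a median of -0.10.

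**Figure D2:**
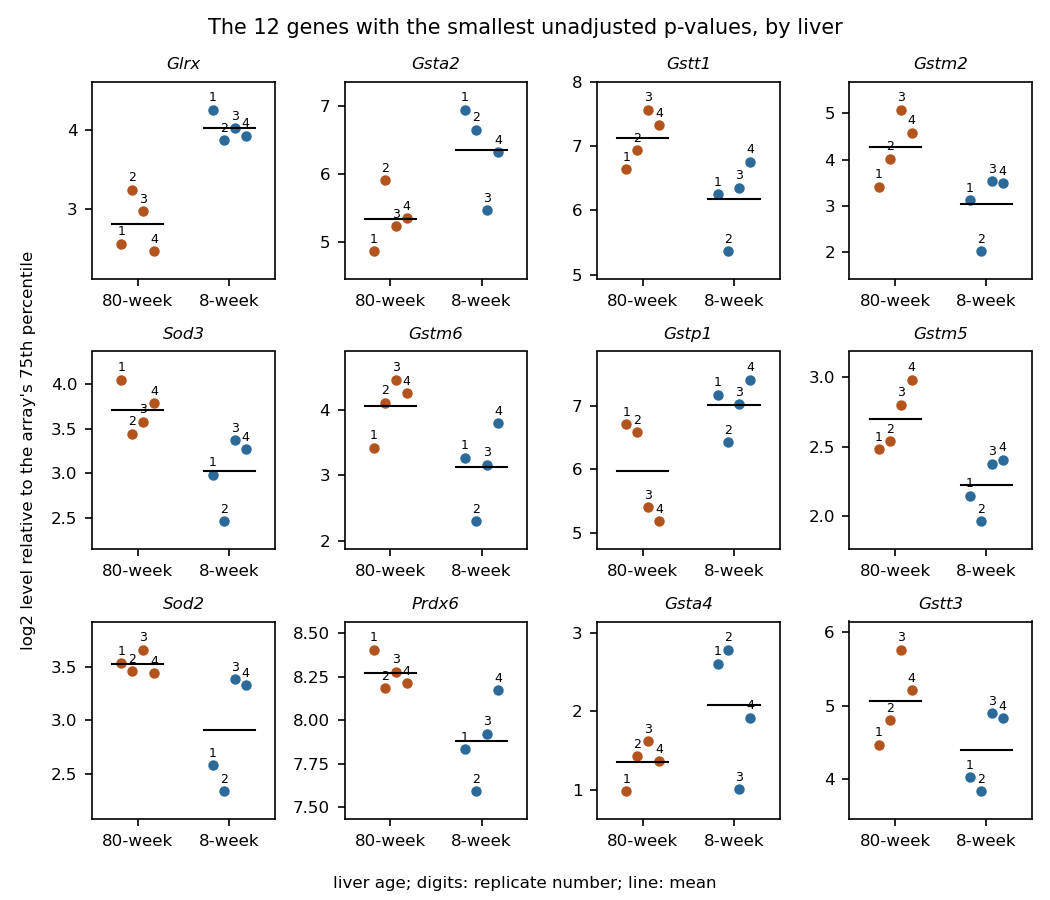
Log2 level relative to the array's 75th percentile (vertical axis, its range set per panel) on each array for the 12 members with the smallest unadjusted p-values, 80-week livers left and 8-week livers right, digits giving the replicate number and lines the means. Glrx, Sod3, Gstm5, Sod2 and Prdx6 show no overlap, and replicate 2 is the lowest 8-week array in all panels but those of Gsta2 and Gsta4.

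The mu class of glutathione transferases, cytosolic enzymes abundant in rodent liver, had a positive difference in 7 of 7 members, with a median of 0.31. Gstm2 stood at 3.42, 4.02, 5.07 and 4.58 in 80-week livers, against 3.12, 2.02, 3.54 and 3.50 in 8-week livers. The ages overlapped, since 80-week replicate 1 lay below 8-week replicates 3 and 4, and 80-week replicates 3 and 4 were the highest. The difference was 1.23 (SE 0.43), 2.34-fold higher, with an adjusted p of 0.294, and 0.75 without 8-week replicates 1 and 2. Gstm6 was at 3.42, 4.11, 4.46 and 4.26 in 80-week livers, against 3.27, 2.30, 3.16 and 3.79 in 8-week livers, again with overlap, and differed by 0.93 (SE 0.34, adjusted p = 0.305), and by 0.58 without those arrays. A second Gstm6 probe differed by 0.40 (SE 0.30). Gstm5 was at 2.48, 2.54, 2.80 and 2.98 in 80-week livers, against 2.15, 1.96, 2.38 and 2.41 in 8-week livers. Here the lowest 80-week array lay just above the highest 8-week array, the difference was 0.48 (SE 0.20, adjusted p = 0.336), 0.31 without 8-week replicates 1 and 2, and a second probe gave 0.52 on all 8 arrays.

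Gstm3 showed no such gap, at 7.66, 7.96, 8.24 and 8.18 in 80-week livers, against 8.14, 7.24, 7.84 and 8.18 in 8-week livers. Its ages overlapped across nearly their whole range (difference 0.16, SE 0.25). The differences of Gstm1 (0.16, SE 0.24), Gstm4 (0.25, SE 0.30) and Gstm7 (0.31, SE 0.29) were of similar small size. In all 7 members the lowest array was 8-week replicate 2, and without 8-week replicates 1 and 2 the median of the class was 0.07, with 6 of 7 positive. The Gstm1 probe used is annotated by the array to mm9 chr5:117082490-117082549 and a second probe (difference 0.22) to chromosome 3, where the other mu genes of the array lie.

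The theta class, which includes enzymes active on small halogenated molecules, was positive in 3 of 3 tested members (median 0.66, and 0.20 without 8-week replicates 1 and 2). Gstt1 was at 6.65, 6.94, 7.57 and 7.33 in 80-week livers, against 6.25, 5.36, 6.35 and 6.76 in 8-week livers. Only 80-week replicate 1 and 8-week replicate 4 crossed. The difference was 0.94 (SE 0.32), 1.92-fold higher, with an adjusted p of 0.291, and 0.57 without 8-week replicates 1 and 2. Gstt3 was at 4.47, 4.81, 5.76 and 5.21 in 80-week livers, against 4.03, 3.84, 4.90 and 4.83 in 8-week livers, with wide overlap, and differed by 0.66 (SE 0.34, adjusted p = 0.403), and by 0.20 without those arrays. For Gstt2 the difference was 0.35 (SE 0.27). Gstt4 was not above background on any array.

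The alpha class, NRF2-responsive enzymes of hepatocytes, ran the other way in 2 of 3 members (median -0.73, and -0.11 without 8-week replicates 1 and 2). Gsta2 was at 4.87, 5.91, 5.24 and 5.36 in 80-week livers, against 6.94, 6.65, 5.47 and 6.32 in 8-week livers. The 8-week replicates 1 and 2 were the highest of the 8 arrays, and 80-week replicate 2 lay above 8-week replicate 3. Its difference was -1.003 (SE 0.34), 2.004-fold lower, with an adjusted p of 0.291, and -0.55 without those 2 arrays. Gsta4, which conjugates the lipid peroxidation product 4-hydroxynonenal, was at 0.98, 1.43, 1.62 and 1.37 in 80-week livers, against 2.61, 2.79, 1.01 and 1.92 in 8-week livers. Again 8-week replicates 1 and 2 stood highest, while 8-week replicate 3 lay among the 80-week arrays, and the difference of -0.73 (SE 0.37, adjusted p = 0.395) was -0.11 without replicates 1 and 2. Gsta3 was at 7.29, 7.84, 8.72 and 8.43 in 80-week livers, against 7.90, 6.86, 7.72 and 8.19 in 8-week livers, with overlap and a difference of 0.40 (SE 0.37), and 0.11 without those arrays.

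**Figure D3:**
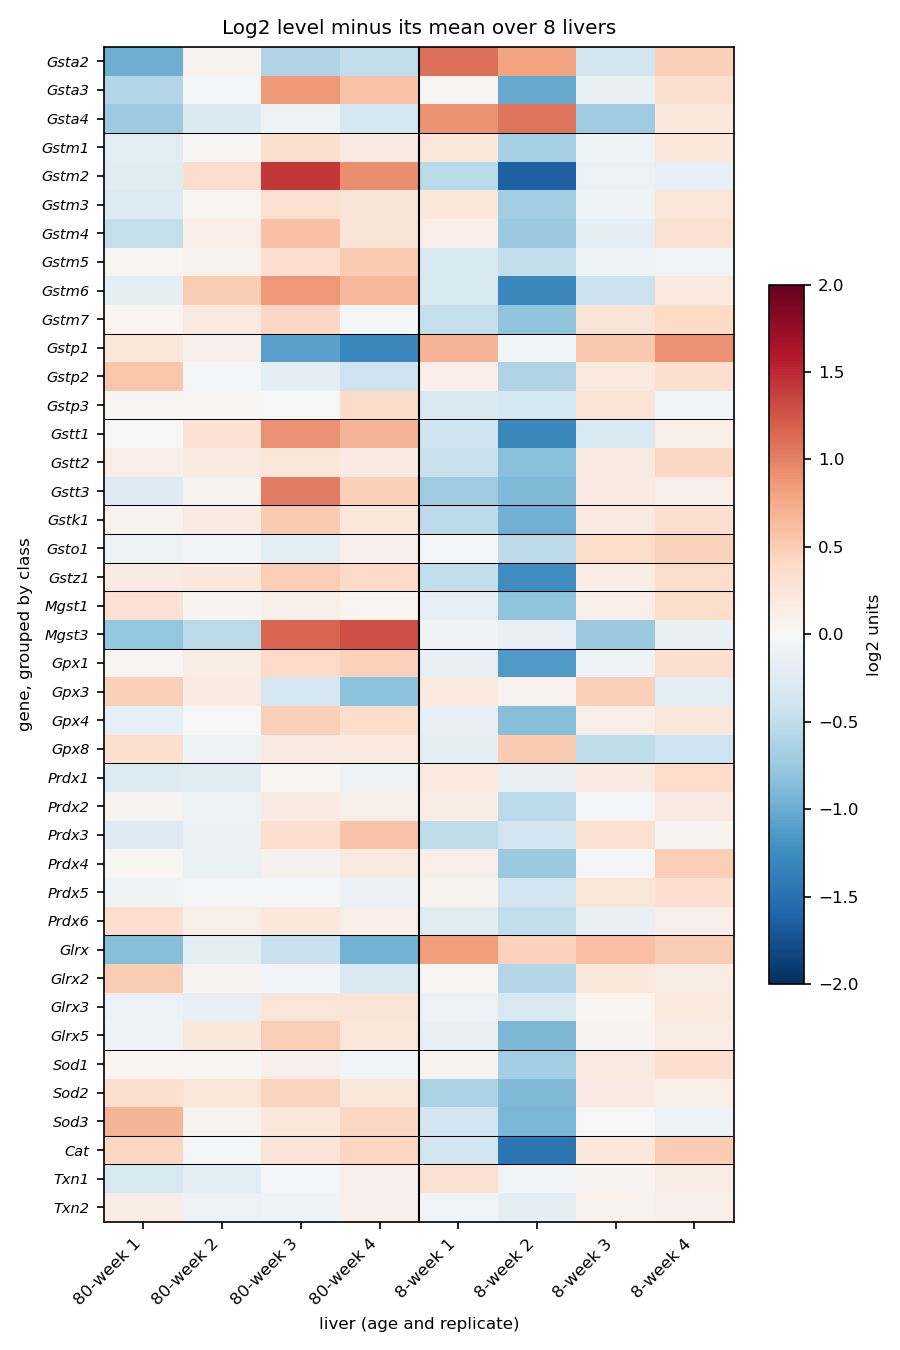
Log2 level of each of the 41 tested genes (rows, by class) minus its mean over the 8 arrays (columns, 80-week left, 8-week right). Red is above and blue below the mean. The column of 8-week replicate 2 is blue in most rows and clearly red only for Gsta2, Gsta4, Glrx and Gpx8, and 80-week replicates 3 and 4 are blue for Gstp1 and red for Gstm2 and Mgst3.

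The pi class was read by 3 probes. Mice without the Gstp genes are known to be less sensitive to acetaminophen injury. Gstp1 was at 6.71, 6.59, 5.40 and 5.18 in 80-week livers, against 7.18, 6.43, 7.03 and 7.41 in 8-week livers. The 80-week replicates 1 and 2 lay within the 8-week range, and 80-week replicates 3 and 4 more than 1 unit below it. The difference was -1.04 (SE 0.39), 2.06-fold lower, with an adjusted p of 0.306, and -1.25 without 8-week replicates 1 and 2. Gstp2, its near-identical neighbour, was at 9.15, 8.58, 8.42 and 8.19 in 80-week livers, against 8.74, 7.99, 8.80 and 8.93 in 8-week livers. The ages overlapped throughout, with a difference of -0.03 (SE 0.28). Transcript accessions listed for the Gstp1 probe belong to both Gstp1 and Gstp2 in the RefSeq names table, so how the signal divides between them is uncertain. The probes lie on mm9 chr19:4037306-4037365 (Gstp1) and chr19:4040283-4040342 (Gstp2), both on the minus strand, and are printed because genes so alike gave different values.
Gstp1 probe: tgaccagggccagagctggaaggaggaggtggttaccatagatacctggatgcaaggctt
Gstp2 probe: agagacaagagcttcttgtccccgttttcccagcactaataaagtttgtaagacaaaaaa
Gstp3 differed by 0.22 (SE 0.20).

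In the single-gene classes and the membrane enzymes, 4 of 5 tested members were positive. Gstz1, which isomerises maleylacetoacetate in tyrosine breakdown, was at 7.28, 7.32, 7.60 and 7.50 in 80-week livers, against 6.62, 5.87, 7.27 and 7.46 in 8-week livers, and Gstk1, the mitochondrial and peroxisomal kappa enzyme, at 6.27, 6.38, 6.74 and 6.43 in 80-week livers, against 5.69, 5.25, 6.39 and 6.53 in 8-week livers. In both, 8-week replicates 1 and 2 lay below the other 6 arrays, and replicates 3 and 4 beside the 80-week arrays. The differences were 0.62 (SE 0.33) for Gstz1 and 0.49 (SE 0.29) for Gstk1, and 0.06 and -0.0025 without replicates 1 and 2. Gsto1, an omega-class thiol transferase, was at 6.14, 6.20, 6.04 and 6.34 in 80-week livers, against 6.22, 5.72, 6.61 and 6.71 in 8-week livers, with overlap and a difference of -0.13 (SE 0.24). It was -0.48 without 8-week replicates 1 and 2. Mgst1, the microsomal transferase of the endoplasmic reticulum and outer mitochondrial membrane, was at 9.36, 9.12, 9.15 and 9.10 in 80-week livers, against 8.89, 8.24, 9.18 and 9.41 in 8-week livers, and its ages overlapped (difference 0.25, SE 0.26). This probe turned to -0.12 without 8-week replicates 1 and 2. A second tested Mgst1 probe differed by 0.56 (SE 0.29) and stayed positive, at 0.19, without those arrays. Mgst3 differed by 0.57 with the widest SE of the 41 members, 0.48: its 80-week arrays split into 1.00 and 1.25 in replicates 1 and 2 and 2.94 and 3.07 in replicates 3 and 4.

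Among the glutathione peroxidases 3 of 4 tested members were positive (median 0.32, and 0.07 without 8-week replicates 1 and 2). Gpx1, the cytosolic selenoenzyme of hepatocytes, was at 9.07, 9.19, 9.43 and 9.51 in 80-week livers, against 8.89, 7.91, 8.97 and 9.37 in 8-week livers. The ages overlapped through 8-week replicate 4, with replicate 2 lower by 0.98 than every other array, and the difference was 0.52 (SE 0.30, adjusted p = 0.441), and 0.13 without 8-week replicates 1 and 2. For Gpx4, which reduces lipid peroxides in membranes, the difference was 0.34 (SE 0.27). Gpx8, a peroxidase of the endoplasmic reticulum, differed by 0.30 (SE 0.25), and by 0.62 without 8-week replicates 1 and 2. Gpx3, the plasma form, differed by -0.26 (SE 0.30).

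Gpx6 was above background on 2 of 4 80-week arrays and 0 of 4 8-week arrays, and was not tested. The mean of all 4 80-week arrays, including those not above background, was 1.70-fold the mean of a floor on the 8-week arrays. That floor was the array's lowest signal well above background, or the gene's own signal where higher. The same ratio was 0.84 for Gsto2, above background on 1 80-week array and 0 8-week arrays. Neither ratio tests a difference, and the share of all genes with such patterns was not counted. Gpx2, Gpx5, Gpx7, Gsto2 and Mgst2 were above background on at most 2 arrays of either age and were not tested.

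Superoxide dismutases were positive in 3 of 3 members (median 0.62, and 0.17 without 8-week replicates 1 and 2). Sod2, the manganese enzyme of mitochondria, was at 3.54, 3.46, 3.66 and 3.44 in 80-week livers, against 2.58, 2.34, 3.39 and 3.33 in 8-week livers. Every 80-week array lay above every 8-week array, by a distance of 0.05 between the groups, and 8-week replicates 1 and 2 were the lowest. The difference was 0.62 (SE 0.26, adjusted p = 0.347), and 0.17 without them. Sod3, the extracellular enzyme, was at 4.05, 3.44, 3.58 and 3.78 in 80-week livers, against 2.98, 2.46, 3.37 and 3.27 in 8-week livers, also without overlap, and differed by 0.69 (SE 0.25), 1.62-fold higher, with an adjusted p of 0.301, and by 0.39 without those 2 arrays. Sod1, the copper-zinc enzyme of the cytosol, was at 9.31, 9.29, 9.36 and 9.21 in 80-week livers, against 9.34, 8.60, 9.45 and 9.60 in 8-week livers, and the ages overlapped (difference 0.04, SE 0.24). The sign of Sod1 turned under 6 of the 13 settings that omit no single array. Catalase (Cat), the peroxisomal enzyme, was at 7.04, 6.60, 6.89 and 7.06 in 80-week livers, against 6.25, 5.18, 6.83 and 7.14 in 8-week livers. Its 8-week replicate 2 lay 1.06 below the next array, replicate 3 among the 80-week arrays and replicate 4 above them. The difference was 0.55 (SE 0.38), and -0.09 without 8-week replicates 1 and 2.

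The peroxiredoxins held 4 positive and 2 negative differences (median 0.09, and -0.12 without 8-week replicates 1 and 2). The intervals of all 6 lay within a 2-fold change, against 10474 of all 17565 genes. Prdx6, which uses glutathione in place of thioredoxin, was at 8.41, 8.19, 8.28 and 8.21 in 80-week livers, against 7.83, 7.59, 7.92 and 8.17 in 8-week livers. The lowest 80-week array lay just above the highest 8-week array, and the difference was 0.39 (SE 0.18, adjusted p = 0.371), and 0.22 without 8-week replicates 1 and 2. Of its 4 tested probes, 2 differed by 0.39 and 0.41 (80-week means 8.27 and 5.85) and the other 2 by -0.05 and 0.05. Those near 0 were dim (80-week means 0.90 and -2.26), and the array lists no RefSeq transcript for them. The differences of Prdx2 (0.12, SE 0.21), Prdx3 (0.27, SE 0.26), Prdx4 (0.07, SE 0.26) and Prdx5 (-0.14, SE 0.20) lay between -0.14 and 0.27. Prdx2 lies in the cytosol, Prdx3 in mitochondria and Prdx4 in the endoplasmic reticulum. Thioredoxin-1 (Txn1), the cytosolic electron donor of these enzymes, was at 5.97, 6.07, 6.26 and 6.39 in 80-week livers, against 6.59, 6.22, 6.33 and 6.42 in 8-week livers, with overlap and a difference of -0.22 (SE 0.18). Mitochondrial thioredoxin (Txn2) differed by 0.03 (SE 0.17).

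Prdx1, the main cytosolic peroxiredoxin and an NRF2 target, was at 8.36, 8.38, 8.67 and 8.52 in 80-week livers, against 8.83, 8.48, 8.81 and 9.005 in 8-week livers on its brightest probe. These ages overlapped through 8-week replicate 2, and the difference was -0.30 (SE 0.18). Its other three probes were singled out after their values were seen. Each was lower on every 80-week array than on any 8-week array. In all, 4 of the 62 tested member probes were lower without overlap, 3 of them of Prdx1, against 3.69% of the 25738 probes tested singly, and 5 were higher, against 4.45%. No member probe passed the threshold in that test (background 0.284% higher and 0.0311% lower). A probe in the middle of the gene, whose 60 bases span 771 bases of genome, differed by -0.52 (SE 0.21). A spliced probe at the 5′ end differed by -0.51 (SE 0.18). The last probe was at -0.77, -0.06, -2.42 and -1.57 in 80-week livers, against 2.57, 1.27, 0.82 and 0.35 in 8-week livers. It differed by -2.46 (SE 0.57), 5.49-fold lower, with an adjusted p of 0.146 over the 25738 probes (limma), and by -1.79 (adjusted p = 0.533) without 8-week replicates 1 and 2.

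This last probe covers mm9 chr4:116358559-116358618, plus strand. That stretch lies inside the part of the genome that the spliced 5′ probe, which runs from 116358214 to 116360019 on the same chromosome and strand, leaves out, and the array lists no RefSeq transcript for it. The first 40 bases of the spliced probe, in capitals below, are the last 40 bases of the RefSeq promoter window of Prdx1. The 3 sequences are printed because the size of the Prdx1 difference turned on which of them was read.
Prdx1 probe in the skipped stretch: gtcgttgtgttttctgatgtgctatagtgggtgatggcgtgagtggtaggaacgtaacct
Prdx1 spliced 5′ probe: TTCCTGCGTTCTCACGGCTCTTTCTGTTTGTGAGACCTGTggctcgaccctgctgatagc
Prdx1 brightest probe: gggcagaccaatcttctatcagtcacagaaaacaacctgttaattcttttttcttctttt

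**Figure D4:**
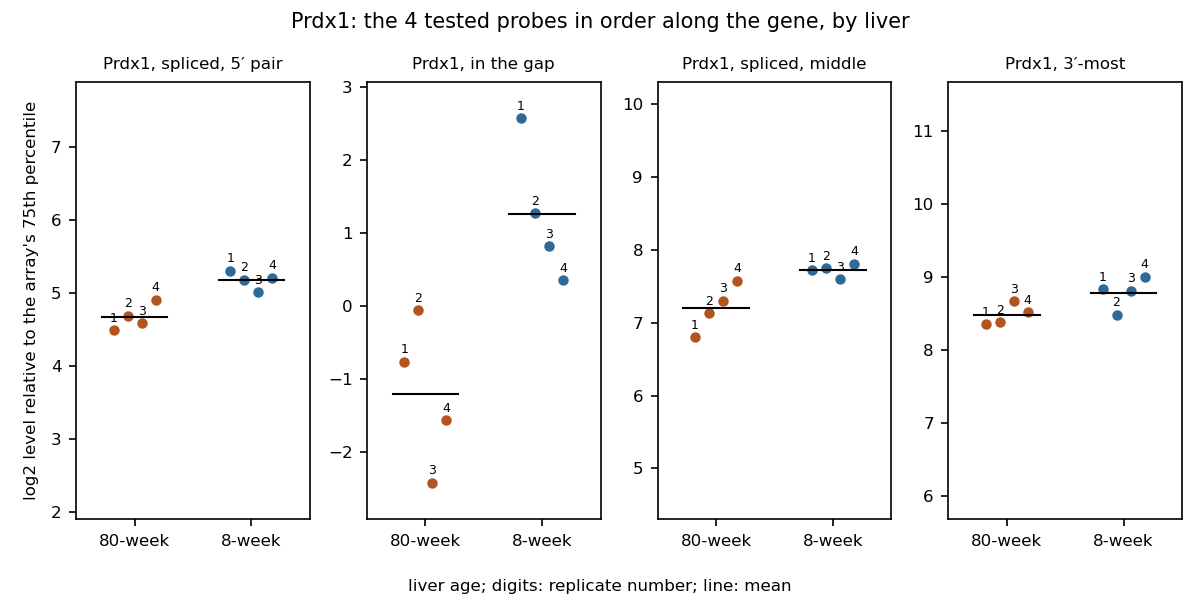
Log2 level relative to the array's 75th percentile (vertical axis, 6 units high in every panel) of the 4 tested Prdx1 probes in order along the gene, 80-week livers left and 8-week livers right, digits giving the replicate number and lines the means. The probe in the skipped stretch differs by -2.46 and the other three by -0.51, -0.52 and -0.30.

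The promoter windows of RefSeq (GRCm38.p6, 250 bases before to 50 after the start of the gene) were searched on both strands for TGACNNNGC, the core of the antioxidant response element that NRF2 binds. It was found in 6 of 44 member genes with a window (13.6%), against 14.0% of all genes: Gsta3, Gstm5, Gstm7, Mgst1, Sod1 and Prdx1. Their differences ran from -0.30 (Prdx1) to 0.48 (Gstm5). The window of Prdx1 is printed because 3 of its 4 probes were lower without overlap. It lies at chr4:116685349-116685648, plus strand, with the match in capitals, which reads TGACTCAGC on the minus strand and begins at base -133 from the start.
Prdx1 promoter: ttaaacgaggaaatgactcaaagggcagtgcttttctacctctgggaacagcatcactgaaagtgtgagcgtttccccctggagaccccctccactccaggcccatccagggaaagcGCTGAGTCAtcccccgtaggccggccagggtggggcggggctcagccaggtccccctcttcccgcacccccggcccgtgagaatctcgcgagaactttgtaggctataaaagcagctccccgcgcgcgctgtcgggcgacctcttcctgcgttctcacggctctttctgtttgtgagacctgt

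The genes that supply and regulate these enzymes came from lists drawn up for this comparison, and no gene of the 6 lists passed the threshold with all 8 arrays in the fit described above. Of the list genes named here, Ahr passed with array weights (adjusted p = 0.0339) and without 80-week replicate 1 (0.0327), and Aox3 without 8-week replicate 4 (0.0336), in refits of limma. Over all genes tested, 52.0% of differences were positive, and at an unadjusted p under 0.05 7.91% were higher and 6.14% lower. The median over all genes was 0.02, and -0.06 without 8-week replicates 1 and 2. Of 23 tested genes of glutathione synthesis, recycling and export, 16 were positive (median 0.25, and -0.07 without those arrays). At an unadjusted p under 0.05, 2 were higher and 2 lower. The lower ones were Gclc, the catalytic subunit of the rate-limiting enzyme of glutathione synthesis, and Gsr, glutathione reductase. Gsr was at 5.21, 5.71, 5.36 and 5.07 in 80-week livers, against 6.05, 6.12, 5.86 and 5.96 in 8-week livers. The ages did not overlap, and the difference was -0.66 (SE 0.19, adjusted p = 0.231), and -0.58 without 8-week replicates 1 and 2. Gclc was at 6.46, 7.50, 6.87 and 6.77 in 80-week livers, against 8.53, 8.27, 7.26 and 7.48 in 8-week livers. Its 8-week replicates 1 and 2 were the highest arrays, and replicates 3 and 4 stood beside 80-week replicate 2 (difference -0.99, -0.47 without replicates 1 and 2). Anpep, a peptidase that cleaves cysteinylglycine, was at 5.36, 5.28, 5.50 and 5.37 in 80-week livers, against 4.58, 4.11, 5.005 and 5.004 in 8-week livers and differed by 0.71 (SE 0.23), and by 0.38 without 8-week replicates 1 and 2. Slc7a11, the cystine importer, was above background on 1 array and was not tested.

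Of 25 genes of the thioredoxin cycle and sulfur repair, 17 were positive (median 0.17, and 0.03 without 8-week replicates 1 and 2). At an unadjusted p under 0.05, 4 were higher and 2 lower. Txnrd1, cytosolic thioredoxin reductase, was at 5.17, 6.13, 4.81 and 5.36 in 80-week livers, against 6.59, 6.97, 6.02 and 6.11 in 8-week livers. Only 80-week replicate 2 reached into the 8-week range, and the difference was -1.05 (SE 0.32, adjusted p = 0.252), and -0.70 without 8-week replicates 1 and 2. Srxn1, sulfiredoxin, which restores overoxidised peroxiredoxins, differed by -0.68 (SE 0.42), and by -0.14 without 8-week replicates 1 and 2. Nxn, nucleoredoxin, differed by -0.84 (SE 0.25, adjusted p = 0.245). Txnip, the inhibitor of thioredoxin, was at 5.70, 4.98, 7.06 and 5.89 in 80-week livers, against 4.44, 3.70, 4.79 and 5.41 in 8-week livers, with overlap and a difference of 1.32 (SE 0.47, adjusted p = 0.304), and 0.81 without 8-week replicates 1 and 2.

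Among 12 genes of NADPH supply, 7 were positive (median 0.14, and -0.09 without 8-week replicates 1 and 2). At an unadjusted p under 0.05, 1 was higher and 3 lower. G6pdx, the entry enzyme of the pentose phosphate pathway, was at 0.44, 0.69, -0.13 and 0.21 in 80-week livers, against 3.32, 3.85, 0.88 and 1.02 in 8-week livers. No array overlapped, but 8-week replicates 1 and 2 stood more than 2 units above replicates 3 and 4, and the difference of -1.96 (SE 0.65) was -0.65 without them. Pgd, of the same pathway, was at 2.66, 3.19, 2.62 and 3.04 in 80-week livers, against 4.43, 5.21, 3.21 and 3.45 in 8-week livers likewise without overlap and with replicates 1 and 2 highest (difference -1.20, -0.45 without them). Of 21 genes of selenoprotein synthesis and selenoproteins 17 were positive (median 0.26, and -0.03 without 8-week replicates 1 and 2). At an unadjusted p under 0.05, 5 were higher and 1 lower. The smallest p-values were those of Selenom (0.73, SE 0.25) and Selenoh (0.72, SE 0.27), at 0.40 and 0.39 without 8-week replicates 1 and 2.

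**Figure D5:**
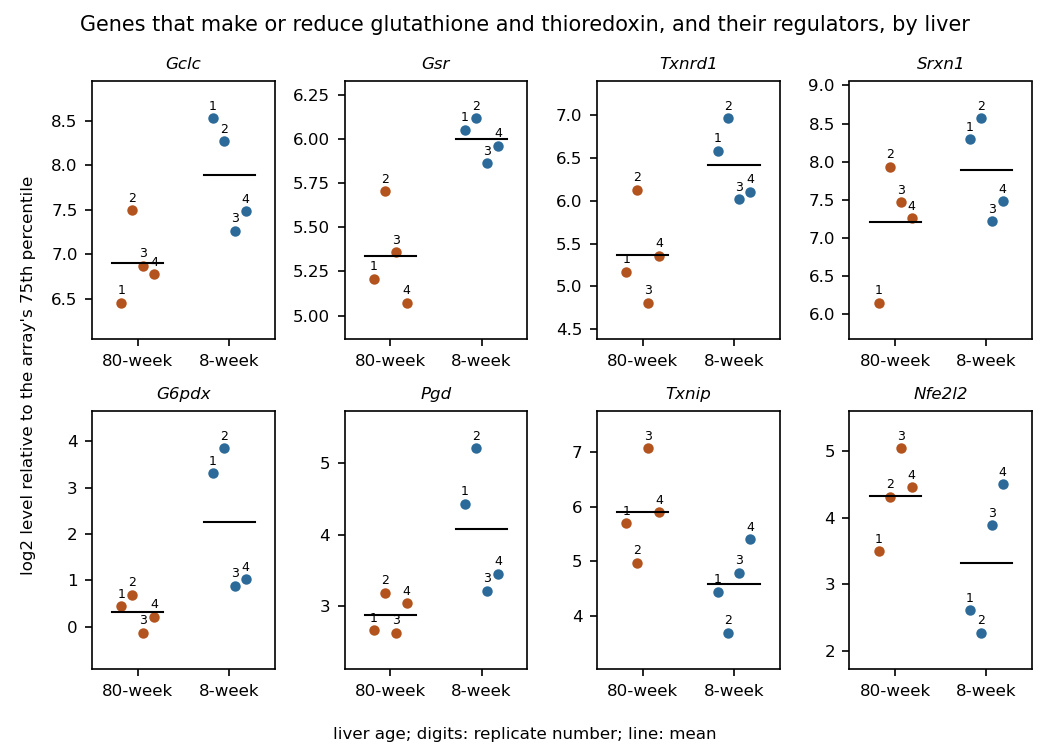
Log2 level relative to the array's 75th percentile (vertical axis, its range set per panel) of 8 genes that make or reduce glutathione and thioredoxin, supply NADPH or regulate them, 80-week livers left and 8-week livers right, digits giving the replicate number and lines the means. Gsr, G6pdx and Pgd show no overlap. The 8-week replicates 1 and 2 are the highest arrays for Gclc, Gsr, Txnrd1, Srxn1, G6pdx and Pgd. They are the lowest for Txnip and Nfe2l2.

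The regulators of antioxidant genes were positive in 13 of 19 (median 0.38, and 0.08 without 8-week replicates 1 and 2). At an unadjusted p under 0.05, 5 were higher and 1 lower. Ahr, the aryl hydrocarbon receptor, was at 2.43, 3.18, 3.83 and 3.81 in 80-week livers, against 1.68, 2.18, 1.90 and 2.02 in 8-week livers. The ages did not overlap, and the difference was 1.37 (SE 0.32, adjusted p = 0.139), and 1.35 without 8-week replicates 1 and 2. Ppara, the receptor that drives peroxisomal fatty acid oxidation, differed by 0.999 (SE 0.29, adjusted p = 0.227), also without overlap, and by 0.77 without those arrays. Nfe2l2, which encodes NRF2, was at 3.50, 4.32, 5.04 and 4.46 in 80-week livers, against 2.60, 2.27, 3.89 and 4.50 in 8-week livers. Its 8-week replicates 1 and 2 were the lowest arrays, and the difference of 1.01 (SE 0.51) was 0.13 without them. Keap1, the inhibitor of NRF2, differed by -0.34 (SE 0.21). Of 17 other antioxidant proteins 13 were positive (median 0.24, and -0.03 without 8-week replicates 1 and 2). At an unadjusted p under 0.05, 0 were lower and 2 higher. These were Aox3, an aldehyde oxidase of liver (1.63, SE 0.41), and Vnn1, a pantetheinase (0.998, SE 0.43). Without 8-week replicates 1 and 2 their differences were 1.20 for Aox3 and 0.34 for Vnn1.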

How the data were processed

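Total RNA of 8 liver samples was hybridised to 8 single-colour arrays on 1 slide and scanned once. Per the file headers, Feature Extraction 10.7.3.1 had background-subtracted and detrended the deposited spot intensity values; version 9.1 of the same software is the one in the submitters' processing notes. A series table deposited by the authors held the same intensity within 1% for 100% of 56605 probes on every array (column medians 17.4 to 34.9), so it carried no scaling between arrays. It served as an alternative and held 0 columns of other samples. Positions are those of the array files (mm9).

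The log2 of the processed signal was taken, outlier spots (59 to 97 per array) were left out, a probe's remaining spots were averaged, and the array's 75th percentile (154.7 to 352.8 intensity units) was subtracted. No spot was saturated. A probe counted as above background on an array where a share of at least 0.5 of its spots were, and was tested when this held on at least 4 of 8 arrays. A gene was read from its brightest tested probe. The ages were set against each other by lmFit and eBayes of limma 3.58.1 (R 4.3.3) over 17565 genes. The p-values were adjusted by Benjamini-Hochberg, and the threshold was 0.05. The number of arrays limits the precision. All 48 member names are in the RefSeq table of GRCm38.p6, used for names and promoter windows only, and Gpx2-ps1 and Prdx6b carry a suffix and were not counted.

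The members, gene lists and naming rule were chosen with earlier results of these data known. Every member is named, and values on each array are given for the brightest tested member of each class and the 15 members with the smallest p. Of the 6 pathway lists, the 2 genes with the smallest p and some set genes are named. The alternatives were other background corrections, scalings and filters, the mean of a gene's probes, array weights, a trended and robust prior, a replicate block, outlier spots kept in, the deposited table, and the omission of arrays. Single probes as features were added after the data were seen. The fit was tested on simulated data of 17565 genes in the same design: it recovered 34% of 50 genes with a 2-fold change, 72% of 50 with a 4-fold and 92% of 50 with an 8-fold change, and called 8 of 17365 unchanged genes. The simulated noise was independent between genes, with a common SD for both ages. Deviations shared by the genes of an array were not simulated, so these figures may not hold for the real arrays.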

Additional observations from a re-analysis of the deposited data

Results flagged for a closer look

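Within each age, the highest and lowest of the 4 arrays were compared with their neighbours by Dixon's ratio for the 41 members, 17 further named genes and the other Prdx1 probes. This examined 122 groups of 4 and found 2 with an array far from the rest (1.64%), where chance gives about 5%. For Gstp3, 80-week replicate 4 was at 0.29, whereas the other three 80-week arrays lay between -0.10 and -0.08. For Mgst3, 8-week replicate 3 was at 1.03, whereas the other three 8-week arrays lay between 1.62 and 1.71.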

How the results depend on the processing

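Of the 41 members, 26 kept the sign of their difference under all 13 alternatives and all 8 omissions of 1 array, and 15 did not. No member passed the threshold under the main setting, whereas 1 did (Glrx) under median scaling, normexp with the 75th percentile, normexp with quantile scaling, a trended and robust prior, and array weights, and 0 under the others, with 0 in each omission of 1 array and 0 with single probes as features, with or without 8-week replicates 1 and 2. Of the further genes named, Ahr passed with array weights and without 80-week replicate 1, and Aox3 without 8-week replicate 4. The cause of these shifts was not tested.

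Genes past the threshold over the whole array numbered 58 higher and 5 lower. The higher count was 20 with probes above background on all 8 arrays, 136 with array weights and 12 without 8-week replicates 1 and 2, and 25 to 69 with 1 array omitted (25 without 8-week replicate 1, 33 without 80-week replicate 3 and 35 without 80-week replicate 4). The lower count was 8 with quantile scaling, 13 with median scaling, 8 with no filter, 1 with probes above background on all 8 arrays, 9 with the mean of probes, 8 with the trended and robust prior, 36 with array weights and 2 without 8-week replicates 1 and 2, and 2 to 14 with 1 array omitted. Deviations of same-numbered samples correlated at 0.03, 0.14, 0.11 and 0.10. The best 8-week matches of 80-week replicates 1 to 4 were replicates 3, 1, 3 and 4. With 4 arrays per age these values cannot settle whether the replicate numbers pair the samples, and the main fit did not pair them. With the replicate block 53 genes were higher and 17 lower, and no member passed. The median over all genes, 0.018 under the main setting, was -0.086 with median scaling and 0.188 when dim probes were kept, and moved by less than 0.1 under the other settings.

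Without 8-week replicates 1 and 2, class medians were -0.11 (alpha), 0.20 (theta), -0.0025 (kappa), -0.48 (omega), 0.062 (zeta), 0.066 (glutathione peroxidases), 0.17 (superoxide dismutases), -0.098 (glutaredoxins), -0.12 (peroxiredoxins), -0.087 (catalase) and -0.011 (all members). Array weights gave -0.13 (alpha), 0.17 (glutathione peroxidases), 0.26 (superoxide dismutases), -0.080 (glutaredoxins) and -0.066 (peroxiredoxins). With 1 array omitted, the glutathione peroxidase median ran from 0.17 to 0.39.

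Signs turned as follows. Without 8-week replicates 1 and 2, the differences were -0.087 for Cat, -0.13 for Glrx2, -0.065 for Glrx3, -0.0025 for Gstk1, -0.18 for Gstm7, -0.12 for Gstt2, -0.12 for Mgst1, -0.011 for Prdx2, -0.046 for Prdx3, -0.20 for Prdx4, -0.23 for Sod1 and -0.067 for Txn2. Array weights gave -0.15 for Glrx2, -0.012 for Glrx3, -0.041 for Gstm7, -0.0061 for Gstt2, -0.062 for Mgst1, -0.14 for Prdx4, -0.18 for Sod1 and -0.073 for Txn2. Median scaling gave -0.0057 for Glrx2, -0.00014 for Glrx3, -0.035 for Prdx4, -0.060 for Sod1 and -0.073 for Txn2, all above the median over all genes under that setting. The deposited table, unscaled, gave -0.0027 for Glrx2, -0.030 for Prdx4, -0.054 for Sod1 and -0.071 for Txn2. Quantile scaling gave -0.015 for Sod1 and -0.056 for Txn2, normexp with quantile scaling -0.053 for Sod1 and -0.055 for Txn2, and the mean of probes -0.066 for Txn2. With 1 array omitted, the differences ran from -0.079 to 0.22 for Glrx2, -0.041 to 0.26 for Gstm1, -0.041 to 0.28 for Gstm3, -0.24 to 0.10 for Gstp2, -0.040 to 0.20 for Prdx2, -0.16 to 0.25 for Prdx4, -0.17 to 0.16 for Sod1 and -0.020 to 0.074 for Txn2. The number of arrays limits what can be called: 34% of the simulated 2-fold changes were recovered, with noise independent between genes, unlike the real arrays.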
